A study of Mus musculus with 24 samples.

Results

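The receptors for aldosterone and glucocorticoids, the enzymes that set how much active steroid reaches them, and a few of their best known target genes were examined in mouse kidney as 7 genes: *Nr3c1*, *Nr3c2*, *Hsd11b1*, *Hsd11b2*, *Fkbp5*, *Tsc22d3* and *Zbtb16*. Each was represented by the probe set that carries its symbol alone, and each of the 7 had exactly 1 such probe set among the 18782 genes with a single-symbol probe set on the array. Kidney RNA of 24 mice, aged 12 weeks, was hybridised to Affymetrix Mouse Gene 1.0 ST arrays, each mouse on its own array, and the mice formed 4 groups of 6: BPH/2J females, BPN/3J females, BPH/2J males and BPN/3J males. BPH/2J is the Schlager hypertensive strain and BPN/3J its normotensive control, both derived by selective breeding on blood pressure. Blood pressure was not recorded in the array mice, and kidneys were taken in the inactive period of the day. On the arrays the study set the strains against each other within each sex. It compared the sexes within a strain by quantitative PCR of other genes, so the array comparisons of the sexes below were made here.

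Aldosterone and the glucocorticoids (corticosterone in mice) act through 2 related nuclear receptors, the mineralocorticoid receptor and the glucocorticoid receptor, which sit in the cytoplasm with heat shock proteins and co-chaperones until hormone binds, and then act on genes in the nucleus. Corticosterone binds both receptors, so in aldosterone target cells of the distal nephron the enzyme 11-beta-hydroxysteroid dehydrogenase type 2 inactivates it, while the type 1 enzyme regenerates it elsewhere. In the distal nephron the mineralocorticoid receptor is known for raising sodium uptake through the epithelial sodium channel.

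The deposited values were log2 expression after robust multiarray analysis (RMA), from 2.12 to 14.55, with array medians of 6.89 to 6.97 and correlations between arrays of a group of 0.981 to 0.997. Kidney markers were high on all arrays (*Umod* of the thick ascending limb at 13.44 to 13.76, *Aqp2* of the collecting duct at 10.37 to 10.89). Transcripts of neighbouring organs were also present and uneven between arrays of a group. The mean of 20 hepatocyte genes reached at most 9.25 in BPH/2J females, 11.54 in BPN/3J females, 9.17 in BPH/2J males and 8.54 in BPN/3J males, and BPN/3J female replicates 2 and 5 stood apart at 11.26 and 11.54. The mean of 9 adrenal cortex genes was above 8 on 4 arrays of BPH/2J females, 4 of BPN/3J females, 1 of BPH/2J males and 2 of BPN/3J males, and at most 7.30 on the others. The mean of 7 adipocyte genes separated the female strains, at 8.34 to 9.39 in BPH/2J and 7.34 to 8.29 in BPN/3J (3 of 7 called higher and 0 lower), and overlapped in males, and its part in the female strain differences was not tested. In whole tissue, fewer cells of a type and less RNA per cell cannot be told apart.

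A probe set was called when its Benjamini-Hochberg adjusted p from limma, over all 28853 probe sets, was under 0.05. In females, 3 of the 7 genes were called between the strains, 1 higher (*Nr3c2*) and 2 lower (*Fkbp5* and *Tsc22d3*) in BPH/2J compared with BPN/3J, where 14.5% of all probe sets were called (8.01% higher and 6.48% lower). In males, 5 of the 7 were called, the same 3 in the same directions together with *Hsd11b1* and *Zbtb16*, both lower in BPH/2J, where 15.2% of all probe sets were called (7.48% higher and 7.7% lower). *Nr3c1* and *Hsd11b2* were called in neither sex. At the Bonferroni threshold that the methods of the study use, 0 of the 7 passed in females and 1, *Fkbp5*, in males, against 2.36% and 2.56% of all probe sets, and 4 and 5 of the 7 had an unadjusted p under 0.05 in limma. The groups did not overlap for 1 of the 7 genes in females and 3 in males, against 9.34% and 9.65% of all probe sets. Without the arrays rich in adrenal transcript, which left 2 arrays in each female group, 0 of the 7 passed in females (0.34 for *Nr3c2*, -0.28 for *Fkbp5* and -0.26 for *Tsc22d3*, limma adjusted p = 0.155, 0.248 and 0.257) and the same 5 passed in males. Over all probe sets, 551 were then called in females and 2978 in males.

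**Figure D1:**
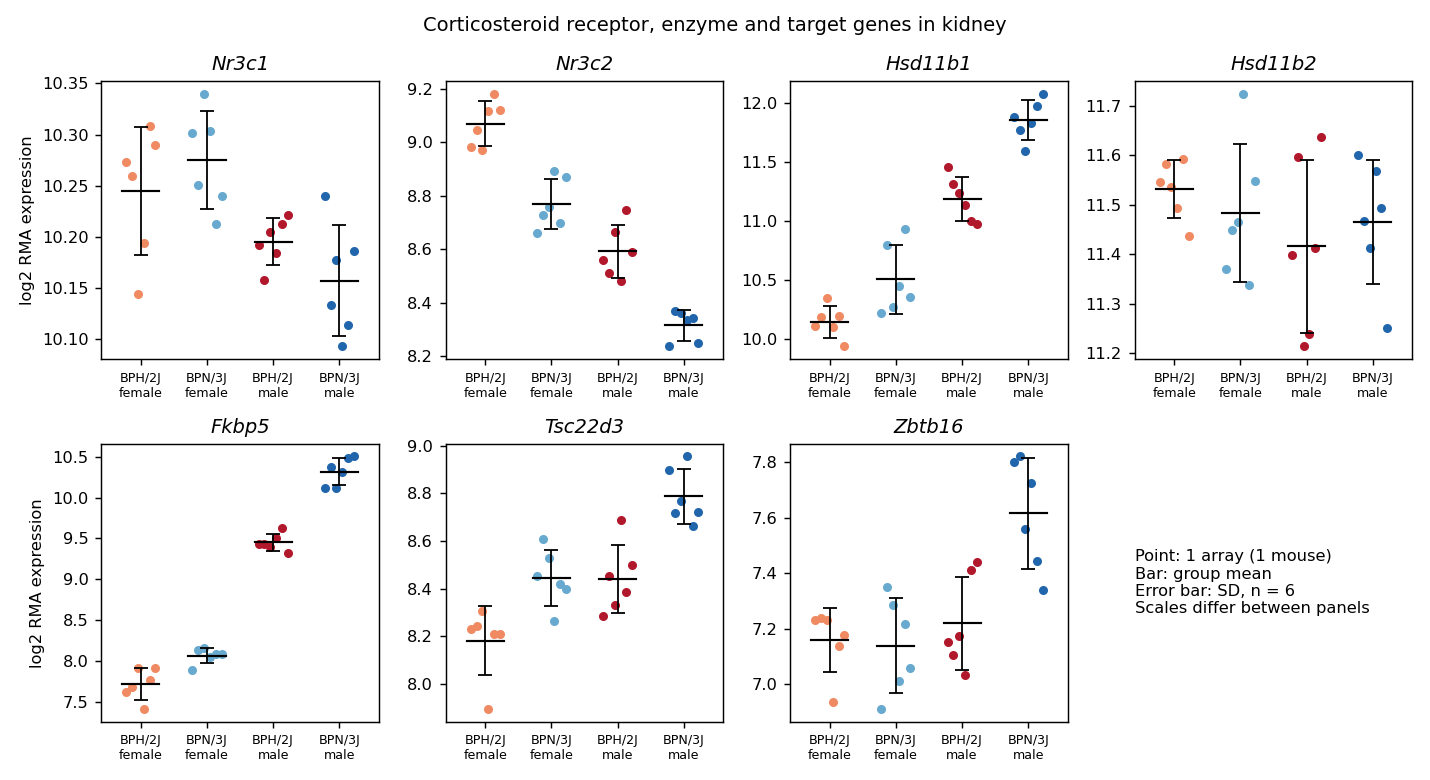
Log2 RMA expression of the 7 genes in each array, by group, on axes that differ between panels. Each point is 1 mouse (its sideways position has no meaning), the horizontal bar the group mean and the error bar the SD (n = 6). *Fkbp5* averaged 7.72 in BPH/2J females and 8.07 in BPN/3J females, against 9.45 in BPH/2J males and 10.32 in BPN/3J males.

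*Nr3c2*, on chromosome 8 (GRCm38.p6 positions 76898083 to 77245012), encodes the mineralocorticoid receptor. In females its level ran from 8.97 to 9.18 (median 9.08) in BPH/2J and from 8.66 to 8.89 (median 8.74) in BPN/3J. In males it ran from 8.48 to 8.75 (median 8.57) in BPH/2J and from 8.24 to 8.37 (median 8.34) in BPN/3J. Every BPH/2J array thus lay above every BPN/3J array of its sex, and every female array of a strain above every male array of it. The strain difference was 0.30 on the log2 scale in females (standard error 0.0526, limma adjusted p = 0.00148), a 1.23-fold higher level in BPH/2J, and 0.28 in males (standard error 0.0497, adjusted p = 0.00164), 1.21-fold. The strain effects of females and males differed by 0.03 (95% confidence interval -0.12 to 0.17).

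Markers of some nephron cells were also higher in BPH/2J. Of 8 markers of intercalated cells, the acid-base cells of the collecting duct, 7 were higher in BPH/2J females and 4 in BPH/2J males, with 0 lower in either. The median of their mean level was 10.22 in BPH/2J females, 9.94 in BPN/3J females, 9.86 in BPH/2J males and 9.70 in BPN/3J males, and the ranges of the strains did not overlap in either sex. Of 5 podocyte markers, 5 were higher in BPH/2J females and 4 in BPH/2J males. Of 7 principal cell markers, 3 were higher and 0 lower in females of BPH/2J, against 2 higher and 1 lower in males. The higher ones included the sodium channel genes *Scnn1b* and *Scnn1g* in both sexes, and in males no others. Both are also counted below as aldosterone-responsive genes, so the 2 lists are not independent there. Other segments differed among themselves in direction. Of 6 thick ascending limb markers, 2 were higher and 0 lower in each sex. Of 6 distal convoluted tubule markers, 0 were higher and 3 lower in females, and 2 higher and 2 lower in males. Of 9 proximal tubule markers, 2 were higher and 1 lower in females, and 1 higher and 1 lower in males. In females, the 7 intercalated and 5 podocyte calls became 4 and 3 without BPN/3J female replicates 2 and 5, and 0 and 0 without the arrays rich in adrenal transcript. The latter setting left 2 arrays in each female group. Female calls over all 28853 probe sets were 4180 on all arrays, 3212 in the first of these settings and 551 in the second. The part of these marker differences in that of *Nr3c2* was not tested.

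*Nr3c1*, the gene of the glucocorticoid receptor, lies on chromosome 18 (39410545 to 39519421). Its level was 10.14 to 10.31 (median 10.27) in BPH/2J females and 10.21 to 10.34 (median 10.28) in BPN/3J females. In males it was 10.16 to 10.22 (median 10.20) in BPH/2J and 10.09 to 10.24 (median 10.16) in BPN/3J. The strains overlapped in both sexes, and the interval of the strain difference was -0.11 to 0.05 in females and -0.04 to 0.11 in males.

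*Hsd11b2* encodes the type 2 dehydrogenase that inactivates corticosterone in aldosterone target cells (chromosome 8, 105518746 to 105523988). Its level was 11.44 to 11.59 (median 11.54) in BPH/2J females and 11.34 to 11.72 (median 11.46) in BPN/3J females. In males the range was 11.21 to 11.64 (median 11.41) in BPH/2J and 11.25 to 11.60 (median 11.48) in BPN/3J. All 4 groups overlapped, and no strain or sex comparison was called. The strain difference had an interval of -0.08 to 0.18 in females and -0.23 to 0.13 in males.

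*Hsd11b1*, on chromosome 1 (193221640 to 193264045), encodes the type 1 enzyme, which regenerates active corticosterone and is best known from liver and fat. Its level was 9.94 to 10.35 (median 10.15) in BPH/2J females and 10.22 to 10.93 (median 10.40) in BPN/3J females. In males it was 10.97 to 11.45 (median 11.18) in BPH/2J and 11.59 to 12.08 (median 11.85) in BPN/3J. The strains did not overlap in males and overlapped in females. In BPH/2J males *Hsd11b1* was 1.59-fold lower than in BPN/3J males (log2 fold change -0.67, standard error 0.0938, limma adjusted p = 0.000219). In females the difference was -0.36 (standard error 0.12) and was not called (adjusted p = 0.0667). The strain effects of females and males differed by 0.31 (interval -0.02 to 0.64, adjusted p = 0.447).

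The female value of *Hsd11b1* moved with liver transcripts. The highest BPN/3J female levels, 10.79 and 10.93, were those of replicates 2 and 5, the arrays with the hepatocyte means of 11.26 and 11.54. Without both arrays the female strain difference was -0.18 (adjusted p = 0.182), whereas with the hepatocyte and adrenal cortex means as covariates it was -0.23 (adjusted p = 0.0231), and without BPN/3J female replicate 1 it was -0.42 (adjusted p = 0.0382). In males, the same covariates gave -0.65 (adjusted p = 0.000223).

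Over the 24 arrays, after removal of the group means, *Hsd11b1* and the hepatocyte mean correlated at r = 0.825 (permutation within groups, 100000 shuffles, two-sided p = 0.00011, adjusted p = 0.00385 over 35 relations) and Spearman's rho = 0.710 (permutation p = 0.00189, adjusted p = 0.0662). Within groups of 6 arrays r was 0.77 in BPH/2J females, 0.97 in BPN/3J females, 0.72 in BPH/2J males and 0.47 in BPN/3J males. The 2 arrays farthest from the median hepatocyte mean were BPN/3J female replicates 2 and 5. Without them r was 0.721 with the group means kept, and 0.634 with the group means recomputed (permutation p = 0.00463, adjusted p = 0.162). Of the 35 relations, made of 21 pairs of the 7 genes and each gene with the hepatocyte and adrenal cortex means, this was the only one past an adjusted p of 0.05.

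**Figure D2:**
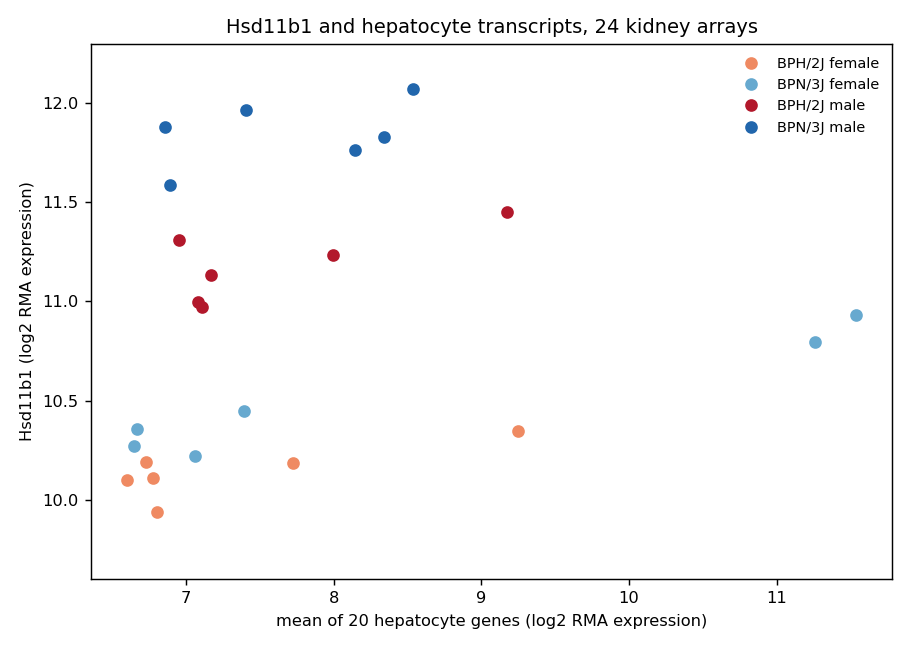
*Hsd11b1* (vertical axis) against the mean of 20 hepatocyte genes (horizontal axis), both as log2 RMA expression, with 1 point per array and colours for the 4 groups. The 2 points at the right are BPN/3J female replicates 2 and 5, with *Hsd11b1* at 10.79 and 10.93. All male arrays lay above all female arrays.

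*Fkbp5*, on chromosome 17 (28398753 to 28486149), encodes the co-chaperone FKBP51, which lowers the hormone affinity of the glucocorticoid receptor and is itself induced by glucocorticoids. It had the largest strain effect of the 7 genes in males and the largest sex effect in each strain. In females its level was 7.41 to 7.92 (median 7.73) in BPH/2J and 7.89 to 8.15 (median 8.09) in BPN/3J, where 1 BPN/3J array lay below 2 BPH/2J arrays. In males it was 9.32 to 9.62 (median 9.43) in BPH/2J and 10.11 to 10.50 (median 10.34) in BPN/3J, with no overlap. The strain difference in females was -0.35 (standard error 0.0817, limma adjusted p = 0.0117), a 1.27-fold lower level in BPH/2J. In males it was -0.87 (standard error 0.0764, adjusted p = 2.87e-06, Bonferroni-adjusted p = 0.0011), 1.82-fold lower, and 375 probe sets (1.3%) had a larger absolute change there. The female call was lost without BPN/3J female replicates 2 and 5 (-0.32, adjusted p = 0.0574).

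The strain effect of *Fkbp5* differed between the sexes. The interaction on all 24 arrays was 0.52 (female minus male strain effect, standard error 0.115, interval 0.28 to 0.76, limma adjusted p = 0.0156), so that the fall in BPH/2J was smaller in females. It was the only one of the 7 genes called, where 1.76% of all probe sets were called (0.918% with a positive and 0.842% with a negative difference). Without each array in turn the interaction was 0.48 to 0.58, and without the 11 arrays with an adrenal cortex mean above 8 it was 0.53 (adjusted p = 0.306).

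*Tsc22d3*, on chromosome X (140539528 to 140600522), encodes the glucocorticoid-induced leucine zipper protein GILZ, a target of both receptors that promotes sodium channel activity at the surface of collecting duct cells. Its level was 7.90 to 8.31 (median 8.22) in BPH/2J females and 8.26 to 8.61 (median 8.44) in BPN/3J females. In males it was 8.29 to 8.69 (median 8.42) in BPH/2J and 8.67 to 8.96 (median 8.75) in BPN/3J. The strains overlapped narrowly in both sexes. *Tsc22d3* was lower in BPH/2J in both sexes, with a difference of -0.26 in females (standard error 0.0726, limma adjusted p = 0.027) and -0.35 in males (standard error 0.0714, adjusted p = 0.0044), 1.27-fold. The female call was lost without BPN/3J female replicate 2 (adjusted p = 0.0604) or replicate 3 (0.0594) and with the hepatocyte and adrenal cortex covariates (-0.22, adjusted p = 0.0855).

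*Zbtb16*, on chromosome 9 (48651797 to 48836225), encodes the zinc finger repressor PLZF and is strongly induced by glucocorticoids in many cell types. In females it was 6.94 to 7.24 (median 7.20) in BPH/2J and 6.91 to 7.35 (median 7.14) in BPN/3J, and the strains overlapped throughout. In males it was 7.04 to 7.44 (median 7.16) in BPH/2J and 7.34 to 7.82 (median 7.64) in BPN/3J, with 2 arrays of BPH/2J inside the range of BPN/3J. The difference was 0.02 in females (interval -0.15 to 0.19, limma adjusted p = 0.911) and -0.40 in males (standard error 0.0965, adjusted p = 0.0128), 1.32-fold lower in BPH/2J. The effects of the sexes differed by 0.42 (standard error 0.13), which was not called (adjusted p = 0.123).

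**Figure D3:**
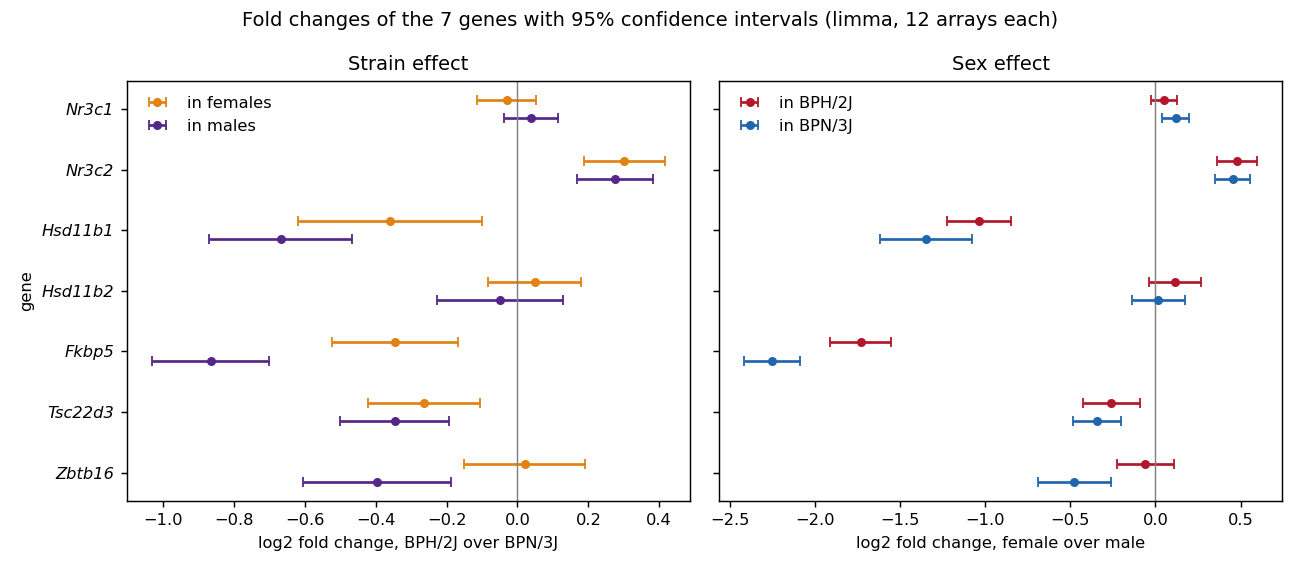
Log2 fold changes of the 7 genes with 95% confidence intervals from limma, 12 arrays per comparison, for BPH/2J over BPN/3J (left) and female over male (right). The strain effect of *Fkbp5* was -0.35 in females and -0.87 in males, that of *Nr3c2* 0.30 and 0.28, and the sex effects of *Fkbp5* and *Hsd11b1* lay furthest from 0.

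The promoters of *Fkbp5* and *Tsc22d3*, the 2 targets lower in BPH/2J in both sexes, and of *Nr3c2*, the gene that was higher, are shown as the 250 bases before the transcript start in the RefSeq reference, assembly GRCm38.p6, which is of C57BL/6J and not of either strain. Capitals mark the half-site bound by corticosteroid receptors (AGAACA or TGTTCT) and the GC box (GGGCGG or CCGCCC), searched on both strands. Promoter windows were matched for 4 of the 7 genes. *Fkbp5* lies on the minus strand at chr17:28486150-28486399, *Tsc22d3* on the minus strand at chrX:140600523-140600772 (1 of its 3 annotated starts, the farthest upstream) and *Nr3c2* on the plus strand at chr8:76902080-76902329. The *Nr3c2* window lies inside the span of the gene (76898083 to 77245012), so it precedes an internal start and not the first base of the gene.
Fkbp5: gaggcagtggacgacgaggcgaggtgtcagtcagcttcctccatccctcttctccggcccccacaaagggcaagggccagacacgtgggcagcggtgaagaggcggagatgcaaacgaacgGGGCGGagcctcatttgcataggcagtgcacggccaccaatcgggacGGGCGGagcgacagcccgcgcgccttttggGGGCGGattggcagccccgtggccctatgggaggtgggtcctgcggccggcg
Tsc22d3: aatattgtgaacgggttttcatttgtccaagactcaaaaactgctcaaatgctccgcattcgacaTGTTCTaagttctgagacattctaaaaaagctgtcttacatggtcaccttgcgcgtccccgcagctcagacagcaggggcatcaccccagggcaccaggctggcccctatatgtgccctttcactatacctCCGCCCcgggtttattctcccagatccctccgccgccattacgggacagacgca
Nr3c2: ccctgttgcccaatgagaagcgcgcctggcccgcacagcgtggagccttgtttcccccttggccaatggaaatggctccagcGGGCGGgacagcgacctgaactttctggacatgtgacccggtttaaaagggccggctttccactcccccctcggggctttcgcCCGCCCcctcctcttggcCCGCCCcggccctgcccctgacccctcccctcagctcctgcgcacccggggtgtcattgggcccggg
The *Tsc22d3* window held 1 half-site, beginning 185 bases before the start, and 1 GC box, and the windows of its other two starts held 0 half-sites. The windows of *Fkbp5* and *Nr3c2* each held 3 GC boxes and 0 half-sites, with a GC content of 68.0% and 68.4%. The printed *Tsc22d3* window had 52.4%, and those of its other starts 58.4% and 49.2%. Of 32851 RefSeq windows of this length, 16.1% held a half-site and 32.7% a GC box. Such matches describe the letters only.

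Between the sexes, *Nr3c2*, *Hsd11b1* and *Fkbp5* had larger differences than between the strains. In BPH/2J, 4 of the 7 genes were called in females compared with males, 1 higher (*Nr3c2*) and 3 lower (*Hsd11b1*, *Fkbp5* and *Tsc22d3*), where 28.9% of all probe sets were called (15.6% higher and 13.4% lower). In BPN/3J, 6 of the 7 were called, *Nr3c1* and *Nr3c2* higher and *Hsd11b1*, *Fkbp5*, *Tsc22d3* and *Zbtb16* lower in females, where 29.2% of all probe sets were called (14.4% higher and 14.8% lower). The groups did not overlap for 3 genes in BPH/2J and 4 in BPN/3J (18.2% and 17.6% of all probe sets). The higher and lower calls over all probe sets numbered 4493 and 3856 in BPH/2J and 4156 and 4268 in BPN/3J, and 3339 and 5232, and 3107 and 5508, after arrays were shifted to a common median.

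*Fkbp5* was 3.32-fold lower in females of BPH/2J (log2 fold change -1.73, standard error 0.0826, limma adjusted p = 6.11e-09) and 4.76-fold lower in females of BPN/3J (-2.25, standard error 0.0754, adjusted p = 1.98e-10). Only 106 and 77 of the 28853 probe sets had a larger absolute change. *Hsd11b1* was 2.05-fold lower in BPH/2J females (-1.04, adjusted p = 1.35e-06) and 2.55-fold lower in BPN/3J females (-1.35, adjusted p = 3.45e-06). These 2 genes also passed the Bonferroni threshold in both strains (4.72% of all probe sets in BPH/2J, 4.74% in BPN/3J), as did *Nr3c2*, which was 1.39-fold higher in BPH/2J females (0.48, adjusted p = 1.85e-05) and 1.37-fold higher in BPN/3J females (0.45, adjusted p = 1.18e-05).

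The other sex effects were smaller. *Tsc22d3* was lower in females of BPH/2J (-0.26, limma adjusted p = 0.024) and of BPN/3J (-0.34, adjusted p = 0.00139), and the BPH/2J call was lost with the covariates (adjusted p = 0.114). *Zbtb16* was lower in females of BPN/3J (-0.48, adjusted p = 0.00242) and gave -0.06 in BPH/2J (interval -0.23 to 0.11). *Nr3c1* was higher in females of BPN/3J by 0.12 (adjusted p = 0.0316), a call that was lost after shifting to a common median (0.08, adjusted p = 0.187) and without any one of BPN/3J male replicates 2, 4 and 5 or BPN/3J female replicates 1, 3 and 4 (adjusted p = 0.0584 to 0.0681). The adrenal cortex mean had a median of 9.37 in BPH/2J females and 6.40 in BPH/2J males, and of 8.97 in BPN/3J females and 6.20 in BPN/3J males. Without the arrays above 8, the sex effects were -1.62 for *Fkbp5* and -1.11 for *Hsd11b1* in BPH/2J, and -2.15 and -1.49 in BPN/3J, all still called. The calls of *Tsc22d3* were then lost in BPH/2J (-0.25, adjusted p = 0.146) and BPN/3J (-0.30, adjusted p = 0.0632), as were those of *Zbtb16* (-0.48, adjusted p = 0.0505) and *Nr3c1* (0.12, adjusted p = 0.287) in BPN/3J.

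Genes around the 7 were counted in 6 lists, to be read against the 14.5% of all probe sets called in females and 15.2% in males. Among 31 measured glucocorticoid-responsive genes, the calls in BPH/2J females were 3 higher and 2 lower and those in BPH/2J males 4 higher and 1 lower, with a list median of -0.02 and 0.03 against 0.02 and 0.00 over all probe sets. A count of 5 of 31 in each sex is near the share over all probe sets. *Pdk4*, the kinase that shuts off pyruvate dehydrogenase, was higher in both sexes (0.67 in females, 0.91 in males), as was *Fam107a*, a stress-induced actin-binding protein (0.56 and 0.36). *Angptl4*, an inhibitor of lipoprotein lipase, was higher by 1.06 in males (limma adjusted p = 2.12e-05), and so was *Slc10a6*, a carrier of sulphated steroids, by 0.37. *Rasd1*, a dexamethasone-induced Ras protein, was higher in females by 0.29, and *Cebpd*, a transcription factor of the acute phase, and *Mertk*, a receptor for the uptake of dying cells, were lower there (-0.35 and -0.24). *Cdo1*, cysteine dioxygenase, was lower in males (-0.21). *Per1*, *Sgk1* and *Klf9*, well known receptor targets added after their values were seen, were called in neither sex. *Per1* was at -0.45 in females (standard error 0.168, limma adjusted p = 0.102) and -0.04 in males. *Sgk1* was at -0.09 and 0.03, and *Klf9* at -0.05 and 0.01. The list thus held calls in both directions. *Pdk4* is also highly expressed in fat. Of 7 adipocyte markers, 3 were higher and 0 lower in BPH/2J females, against 0 higher and 1 lower in BPH/2J males. The part of fat in the *Pdk4* differences was not tested.

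Of 16 aldosterone-responsive genes of the distal nephron, 3 were higher and 1 lower in each sex, with list medians of 0.04 in females and 0.02 in males. *Scnn1b* and *Scnn1g*, the beta and gamma subunits of the epithelial sodium channel, were higher in BPH/2J by 0.46 and 0.42 in females (limma adjusted p = 6.33e-06 and 2.3e-05) and by 0.31 and 0.33 in males (adjusted p = 0.00984 and 0.00575). *Slc12a3*, the thiazide-sensitive sodium-chloride cotransporter, was lower in both sexes (-0.22 in females, -0.33 in males). *Slc26a4*, the exchanger pendrin, was higher in females by 0.20, and *Ndrg2*, an early aldosterone-induced gene, in males by 0.19. *Scnn1b* and *Scnn1g* are also principal cell markers, and *Slc12a3* is a marker of the distal convoluted tubule, of whose 6 markers 3 were lower and 0 higher in females of BPH/2J, against 2 lower and 2 higher in males.

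Among 12 receptor chaperones and co-chaperones, 0 were higher, and 3 were lower in BPH/2J females and 2 in BPH/2J males, with 4 at an unadjusted p under 0.05 in limma in each sex. *Fkbp4*, the co-chaperone FKBP52 that competes with FKBP51 on the receptor, was lower in both sexes (-0.26 in females, -0.25 in males), as was *Dnajb1*, a heat shock protein 40 (-0.23 and -0.42). *Hspa8*, the constitutive heat shock protein 70, was lower in females (-0.13). Of 9 receptor coregulators, *Ncoa3* and *Ncoa2*, both steroid receptor coactivators, were lower in males (-0.17 and -0.14), and 0 were called in females, where 0 had an unadjusted p under 0.05.

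Of 9 genes that bear on steroid availability, 0 were higher, and 4 were lower in BPH/2J females and 2 in BPH/2J males. *Akr1c18*, the 20-alpha-hydroxysteroid dehydrogenase that inactivates progesterone, was lower in both sexes (-1.02 in females, -2.46 in males, limma adjusted p = 0.000466 and 2.72e-08), and its strain effects differed by 1.44 (adjusted p = 0.000255). *H6pd*, the enzyme that supplies the type 1 dehydrogenase with its cofactor, was also lower in both (-0.16 in each). *Serpina6*, the corticosteroid-binding globulin of plasma, made mainly in liver, was lower in females (-1.78, and -1.41 without BPN/3J female replicates 2 and 5), as was *Ugt2b38*, a glucuronosyltransferase (-0.57), whose strain effects differed by -0.61 (adjusted p = 0.0218). Of 5 other nuclear receptors, *Esr1*, the oestrogen receptor alpha, was higher in both sexes (0.59 and 0.53), *Thrb*, a thyroid hormone receptor, was higher in males (0.32) and *Vdr*, the vitamin D receptor, lower in females (-0.20). Without the 2 BPN/3J female arrays richest in liver transcript, the female calls of *Pdk4*, *Cebpd*, *Dnajb1*, *Hspa8* and *Slc26a4* were lost (limma adjusted p = 0.057 to 0.16). Without the arrays rich in adrenal transcript, which left 2 arrays in each female group, *Akr1c18* (-1.36) and *Esr1* (0.95) were the only female calls left in the 6 lists, and *Scnn1b* (0.45, adjusted p = 0.0696), *Scnn1g* (0.43, adjusted p = 0.0997) and *Serpina6* (-1.13, adjusted p = 0.217) were among those lost. Female calls over all 28853 probe sets numbered 551 in that setting. In males the calls of *H6pd*, *Ncoa2*, *Ncoa3*, *Ndrg2* and *Slc10a6* were lost (adjusted p = 0.0546 to 0.207). The difference between the strain effects was also lost there for *Ugt2b38* (-0.51, limma adjusted p = 0.472) and *Akr1c18* (1.01, adjusted p = 0.0717). Without BPN/3J female replicates 2 and 5 it was lost for *Ugt2b38* (-0.53, adjusted p = 0.0829) and kept for *Akr1c18* (1.46, adjusted p = 0.00114). Such calls over all probe sets numbered 508 on all arrays, and 101 and 415 in these 2 settings.

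**Figure D4:**
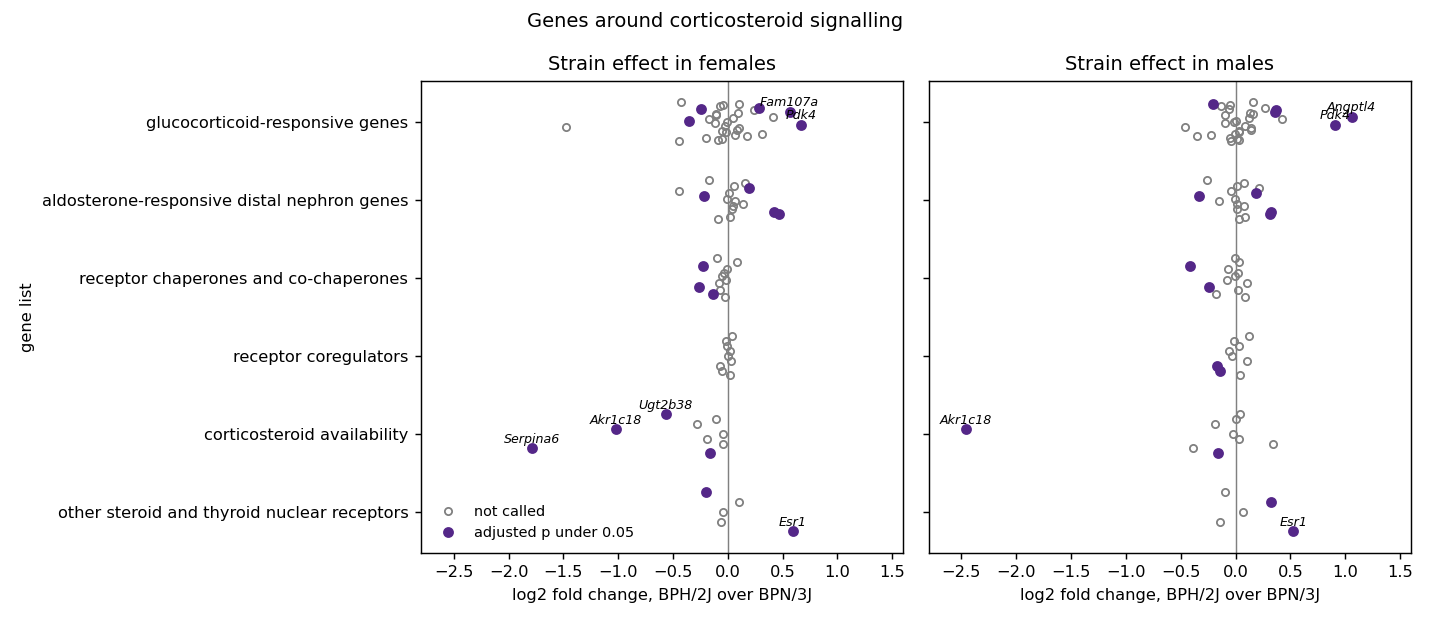
Strain effect of each measured gene in the 6 lists, as log2 fold change of BPH/2J over BPN/3J (horizontal axis), in females (left) and males (right). Filled points passed a limma adjusted p under 0.05 and those beyond 0.5 in size carry their symbol, such as *Akr1c18* at -1.02 in females and -2.46 in males.

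Between the sexes more genes of most lists were called, as over all probe sets (28.9% in BPH/2J and 29.2% in BPN/3J). Of the 16 aldosterone-responsive genes, 10 were higher and 2 lower in females of BPH/2J, and 10 were higher and 1 lower in females of BPN/3J, with *Sgk1*, the kinase that spares the sodium channel from degradation, higher by 0.37 and 0.49. *Usp2* of the same list was lower in females (-0.61 in BPH/2J and -0.73 in BPN/3J). Of the 31 glucocorticoid-responsive genes, 13 were higher and 3 lower in females of BPH/2J, and 16 were higher and 7 lower in females of BPN/3J. *Cebpd* was higher in females by 1.14 in BPH/2J and 1.49 in BPN/3J, and *Fam107a* by 0.83 and 0.63. *Bcl6* was lower in females (-1.54 in BPH/2J and -0.95 in BPN/3J). Its BPN/3J call was lost without BPN/3J female replicates 2 and 5 (limma adjusted p = 0.0705). Of the 12 chaperones, 0 were higher, and 8 were lower in females of BPH/2J and 6 in females of BPN/3J. After arrays were shifted to a common median, the glucocorticoid-responsive counts were 9 higher and 5 lower in BPH/2J, and 15 and 8 in BPN/3J. The aldosterone-responsive counts were then 9 and 2, and 8 and 1, and the chaperones lower numbered 8 and 7. Without the arrays rich in adrenal transcript, the aldosterone-responsive counts were 5 higher and 1 lower in BPH/2J and 4 higher and 1 lower in BPN/3J, the glucocorticoid-responsive counts 6 and 2, and 10 and 1, and the chaperones lower numbered 4 and 2. That setting left 2 female and 5 male arrays of BPH/2J, and 2 female and 4 male arrays of BPN/3J. Calls over all 28853 probe sets then fell as well, to 4116 in BPH/2J and 3684 in BPN/3J, from 8349 and 8424. Nephron markers differed between the sexes too. Higher in females were 8 of 8 intercalated markers in BPH/2J and 6 in BPN/3J, 5 of 5 podocyte and 5 of 6 thick ascending limb markers in each strain, and 4 of 6 distal convoluted tubule markers in BPH/2J and 6 in BPN/3J. The mean of 9 proximal tubule markers was 12.08 to 12.15 in females of BPH/2J, against 12.78 to 12.88 in its males, and 11.98 to 12.13 in females of BPN/3J, against 12.82 to 12.91 in its males. Singly these 9 went both ways, with 3 higher and 4 lower in females of BPH/2J and 4 higher and 3 lower in females of BPN/3J. Their median log2 fold changes were 0.04 and 0.05. The part of these marker differences in the sex differences was not tested.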

How the data were processed

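Members and gene lists were chosen with earlier results of these data known. Log2 expression values of 28853 probe sets on 24 arrays were deposited after RMA normalisation by the authors (RMA version not given in the sources used here). They were used as deposited, with no filter, offset or further scaling. The array annotation gave 1 symbol to 21159 probe sets (73.3%), several to 1881 and none to 5813. A gene was its single-symbol probe set of highest mean.

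Strain within sex and sex within strain were each fitted by limma (version 3.58.1, R 4.3.3) on 12 arrays, and the interaction on 24. Adjusted p-values are Benjamini-Hochberg over all probe sets unless named otherwise. The labels number the mice of a group but do not state litters or batches, so p-values measure the spread between these mice, and their number limits the precision. Correlations used values centred on group means. The script was tested on simulated data.

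Named were the 7 genes, up to 3 called genes per direction and list, and for each of the 7 the 3 genes of most similar pattern. *Per1*, *Sgk1*, *Klf9*, *Usp2* and *Bcl6* were added after their values were seen. Listed genes without a single-symbol probe set were not used here. Alternatives were the Bonferroni threshold, the methods' t-test, a filter on dim probe sets, single-symbol probe sets only, quantile normalisation, a common median, a single model of all arrays, trend and robust variance, the replicate number as a block, covariates for the hepatocyte and adrenal cortex means, omission of each array, and omission of BPN/3J female replicates 2 and 5. Omission of arrays with an adrenal cortex mean above 8 was added after seeing the data. RefSeq promoter windows (GRCm38.p6) were read from the table given for this work. Figures used Python 3.11.15 and matplotlib 3.10.9.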

Additional observations from a re-analysis of the deposited data

Results flagged for a closer look

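In BPH/2J females replicate 4 stood below the other 5 arrays for both *Tsc22d3* and *Zbtb16*. Its *Tsc22d3* level was 7.90 (next lowest 8.21) and its *Zbtb16* level 6.94 (next lowest 7.14), and the same array had the lowest *Fkbp5* level of its group, 7.41. Of 28 groups of 6 arrays examined, 2 had an array set apart in this way, and chance gives about 1 in 20.

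The strain effect of *Fkbp5* differed between the sexes, with an interaction of 0.52 (limma adjusted p = 0.0156).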

How the results depend on the processing

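Of 924 values of single genes under alternatives, 867 kept their direction and side of the threshold, 52 no longer passed it, 5 newly passed it and 0 called values changed sign. Of the 7 genes, the number called between the strains in females (3) became 0 at the Bonferroni threshold, 0 with the methods' t-test and Bonferroni, 1 without BPN/3J female replicates 2 and 5, and 0 without the arrays with an adrenal cortex mean above 8, which left 2 arrays per group, was 2 with the methods' t-test after Benjamini-Hochberg and 4 with the spread shared by 24 arrays or with dim probe sets left out, and was 2 to 4 without each array in turn. In males (5) it became 1 at the Bonferroni threshold and 0 with the methods' t-test and Bonferroni, was 4 with the block, and was 5 without each array in turn. The sex effect in BPH/2J (4) became 2 with the methods' t-test and Bonferroni, was 3 at Bonferroni, with the block, with the covariates and without the adrenal-rich arrays, and was 4 without each array. The sex effect in BPN/3J (6) became 3 at Bonferroni, 1 with the methods' t-test and Bonferroni and 3 without the adrenal-rich arrays, was 5 with the block and with a common median, and was 5 to 6 without each array. The interaction (1) became 0 at Bonferroni, 2 with the covariates (*Hsd11b1* at 0.43, adjusted p = 0.0242) and 0 without the adrenal-rich arrays, and was 1 without each array. The correlation with a call (1) became 0 by Spearman's rho and 0 without BPN/3J female replicates 2 and 5. Omission of the arrays rich in liver or adrenal transcript changed group size and tissue mixture together, so the 2 cannot be told apart. Stricter thresholds aside, the cause of these changes was not tested.

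Over all probe sets the counts of the female and male strain effects, the BPH/2J and BPN/3J sex effects and the interaction were 4180, 4381, 8349, 8424 and 508. They were 681, 740, 1361, 1367 and 104 at Bonferroni, 398, 447, 811 and 833 with the methods' t-test and Bonferroni, and, without the adrenal-rich arrays, 551 for the female strain effect, 4116 and 3684 for the sex effects and 101 for the interaction.

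Replicate numbers were not taken as pairs, since the labels give them no meaning and not every pair correlated above 0.1 in any comparison. Pairs of the same number correlated at -0.57 to 0.34 in the female strain comparison (4 of 6 above 0.1, and 4 samples best matched to their own number), -0.27 to 0.02 in the male one (0 of 6), -0.13 to 0.17 between the sexes of BPH/2J (3 of 6) and -0.34 to 0.44 between those of BPN/3J (3 of 6). With the replicate number as a block the counts were 3590, 3498, 7322, 7912 and 486, and of the 7 genes *Zbtb16* in males (adjusted p = 0.0736), *Nr3c1* between the sexes of BPN/3J (0.0562) and *Tsc22d3* between the sexes of BPH/2J (0.0907) no longer passed. The mean of several probe sets per gene was not run, since each gene had 1.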

Other observations

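For each of the 7 genes, the 3 genes with the most similar pattern over the 24 arrays, after removal of the group means, were found by Pearson's r. This is a description over arrays that share their group structure and tissue mixture. The 3 were picked as the highest among all genes with a single-symbol probe set, so their r is large partly by selection. None was tested. *Hsd11b1* was nearest to *Adh4* (r = 0.87), *Sdc1* (0.87) and *Orm1* (0.85), and *Hsd11b2* to *Rab25* (0.88), *Kcnq1* (0.88) and *Plet1* (0.83). *Nr3c2* was nearest to *Zfp949* (0.81), *Nos1ap* (0.77) and *Arrb1* (0.76), and *Nr3c1* to *Sox21* (0.80), *Ccser2* (0.78) and *Mgat3* (0.77). *Fkbp5* was nearest to *Cpsf4l* (0.78), *Sec11a* (0.72) and *Coasy* (0.69), *Tsc22d3* to *H2-Q2* (0.82), *Mir337* (0.73) and *Per2* (0.71), and *Zbtb16* to *Olfr1193* (0.74), *Olfm5* (0.72) and *Olfr1404* (0.71). Among the 7 genes themselves, *Fkbp5* and *Tsc22d3*, both lower in BPH/2J, correlated at r = 0.21 (rho = 0.13, permutation p = 0.355 and 0.56, adjusted p = 0.654 and 0.852) within groups, and *Nr3c2* and *Tsc22d3* at r = -0.49 (rho = -0.51, permutation p = 0.0272 and 0.0175, adjusted p = 0.309 and 0.235).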
